A study of Mus musculus with 3 samples.

Results

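The intragenic distal regions are stretches of acetylated chromatin that lie inside genes and away from their promoters. They were taken from a deposited list of 22399 regions of H3K27ac, the acetylated form of lysine 27 of histone H3. A region counted as a member when it overlapped no promoter, overlapped no CpG island and had at least 1 gene entry placed in the gene. In the deposited annotation a promoter reaches from 7500 bp before to 2500 bp after a gene start. These rules used position alone, and 6479 regions (28.9%) met them. The signal values therefore had no part in the choice among listed regions. The list itself rests on signal, since every member had an interval called in at least 1 library, 6442 of them with vehicle. Members thus entered almost entirely through the vehicle library, which favours regions that are high there.

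The mark was measured by chromatin immunoprecipitation with sequencing in myeloid-derived suppressor cells (MDSC), immature neutrophil-like and monocyte-like cells that gather in tumours. Both libraries came from female SCID.beige mice, which lack T and B cells and have impaired natural killer cells, aged 6 to 8 weeks when tumour cells were placed under the skin. The growth protocol names the human breast cancer line MDA.MB.231-X1.1 and the mouse colon carcinoma line CT26, and the titles of both libraries carry the tag tnbc. The first group received the vehicle MCT, and the second received GNE-781, an inhibitor of the bromodomain of CBP and EP300, at 25 mg/kg by mouth, with 2 doses a day for 7 days. The sort took CD45+, CD11b+, Ly6C+, F4/80- cells that were Ly6G+ or Ly6G-, so both granulocytic and monocytic cells could enter. Each treatment has 1 library, and the number of mice behind it is not stated. No test was possible, no p-value is given, and every difference describes these 2 libraries. Signal is fragment pileup, as deposited, averaged along the region. Whether it was scaled by the Drosophila chromatin added to each reaction is not known, and the depth is unknown. In a bulk sample, fewer cells with a mark and less mark per cell cannot be told apart.

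Enhancers are stretches of DNA that bind transcription factors and raise transcription from promoters at a distance, and many lie within introns of the gene they act on or of a neighbour. Active enhancers carry H3K27ac, which is written by the paralogous acetyltransferases CBP (gene Crebbp) and EP300. The bromodomain of these enzymes binds acetylated lysine. In myeloid cells such elements are typically bound by PU.1 and other ETS proteins, C/EBP factors, RUNX1 and AP-1. Which exon or intron a region lies in was not determined here.

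Although all members lie outside the deposited promoters, some hold a gene start that RefSeq lists. Of 6336 members on chromosomes with RefSeq start sequences, 216 (3.41%) held at least 1. In 132 of them the start belonged to the gene the region was assigned to, as for alternative starts, and in the other 84 to another gene alone. The 250 bases before the start are printed for the 4 members of highest vehicle signal that hold a start of their own gene. That signal is an average over the whole member, and the signal at the start itself was not measured. They are RefSeq sequences of GRCm38.p6, read in the direction of the gene, and capitals mark a match to GAGGAAGT, a word of the type bound by PU.1. The window of the long noncoding RNA gene A630001O12Rik is chr8:126848770-126849019 on the plus strand, that of Sema4d chr13:51739447-51739696 on the minus strand, that of Inpp5a chr7:139400244-139400493 on the plus strand and that of Aatk chr11:120041782-120042031 on the minus strand.
A630001O12Rik: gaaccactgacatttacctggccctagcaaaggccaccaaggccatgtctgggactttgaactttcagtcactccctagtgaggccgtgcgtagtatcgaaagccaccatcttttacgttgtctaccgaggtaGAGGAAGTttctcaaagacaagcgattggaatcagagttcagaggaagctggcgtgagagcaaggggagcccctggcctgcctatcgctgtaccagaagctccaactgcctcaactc
Sema4d: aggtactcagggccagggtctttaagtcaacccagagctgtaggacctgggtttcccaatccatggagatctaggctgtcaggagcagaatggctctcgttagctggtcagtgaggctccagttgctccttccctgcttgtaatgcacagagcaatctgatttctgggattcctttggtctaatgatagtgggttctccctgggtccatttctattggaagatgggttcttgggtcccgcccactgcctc
Inpp5a: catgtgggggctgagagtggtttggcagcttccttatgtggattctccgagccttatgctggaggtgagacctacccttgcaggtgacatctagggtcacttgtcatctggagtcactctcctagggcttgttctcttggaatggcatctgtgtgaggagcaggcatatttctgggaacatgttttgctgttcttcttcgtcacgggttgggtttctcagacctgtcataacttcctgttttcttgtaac
Aatk: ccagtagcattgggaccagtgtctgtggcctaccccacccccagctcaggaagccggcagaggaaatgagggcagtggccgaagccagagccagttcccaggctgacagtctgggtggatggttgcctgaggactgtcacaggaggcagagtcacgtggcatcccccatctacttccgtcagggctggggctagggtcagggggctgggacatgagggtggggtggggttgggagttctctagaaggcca

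These windows hold 8, 2, 3 and 4 CpG dinucleotides in the same order, and their ratio of observed to expected CpG was 0.460, 0.117, 0.198 and 0.169. The members around them had average signals of 49.6 with vehicle and 8.83 with inhibitor at A630001O12Rik, 39.1 and 9.70 at Sema4d, 33.6 and 8.25 at Inpp5a, and 31.3 and 6.59 at Aatk. All 4 were lower with inhibitor. Sema4d encodes semaphorin 4D, Inpp5a an inositol phosphate phosphatase and Aatk a kinase. Across the 222 start windows inside members the median CpG ratio was 0.248, a value to which the rule itself contributes, since it leaves out CpG islands.

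The word GAGGAAGT, searched on both strands, was found in 6.76% of the windows inside members and in 2.44% of all RefSeq start windows. That share was similar at starts in promoter regions without a CpG island, 6.00%, so it is not particular to the intragenic members. It amounts to 15 windows in 15 members. Besides that of A630001O12Rik, the 5 that lie in the strongest members are printed, since they show the word in its place. Adar is chr3:89730468-89730717 (plus), Gm40103 chr3:98026109-98026358 (minus), Rassf5 chr1:131200186-131200435 (minus), Gm16174 chr7:19816335-19816584 (plus) and Dgkz chr2:91950349-91950598 (minus). The capitals again mark GAGGAAGT or its complement ACTTCCTC.
Adar: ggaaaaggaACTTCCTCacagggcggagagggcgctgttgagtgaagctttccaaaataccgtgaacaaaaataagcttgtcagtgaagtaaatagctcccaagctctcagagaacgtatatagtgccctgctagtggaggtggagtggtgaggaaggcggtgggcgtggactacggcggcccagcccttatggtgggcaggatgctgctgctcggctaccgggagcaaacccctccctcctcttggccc
Gm40103: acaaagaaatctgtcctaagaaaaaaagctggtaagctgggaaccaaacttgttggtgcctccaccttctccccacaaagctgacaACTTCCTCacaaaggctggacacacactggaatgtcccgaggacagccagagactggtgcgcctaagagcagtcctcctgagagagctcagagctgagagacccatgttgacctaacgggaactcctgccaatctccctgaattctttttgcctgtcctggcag
Rassf5: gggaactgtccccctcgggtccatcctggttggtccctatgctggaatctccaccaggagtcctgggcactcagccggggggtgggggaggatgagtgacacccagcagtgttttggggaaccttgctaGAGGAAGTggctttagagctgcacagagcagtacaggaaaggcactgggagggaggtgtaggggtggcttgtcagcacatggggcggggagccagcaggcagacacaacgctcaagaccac
Gm16174: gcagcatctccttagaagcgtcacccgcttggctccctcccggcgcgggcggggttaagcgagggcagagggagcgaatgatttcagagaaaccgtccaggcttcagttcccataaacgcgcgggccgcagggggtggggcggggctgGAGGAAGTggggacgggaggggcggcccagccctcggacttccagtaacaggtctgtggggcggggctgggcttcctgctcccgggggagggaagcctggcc
Dgkz: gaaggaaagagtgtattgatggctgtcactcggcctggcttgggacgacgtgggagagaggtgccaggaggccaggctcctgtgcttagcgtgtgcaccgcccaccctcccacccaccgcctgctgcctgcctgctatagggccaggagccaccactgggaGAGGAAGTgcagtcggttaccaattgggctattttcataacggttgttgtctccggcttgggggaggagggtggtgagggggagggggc

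The word lies 117 bases before the start in A630001O12Rik, 241 in Adar, 164 in Gm40103, 121 in Rassf5, 102 in Gm16174 and 89 in Dgkz. Adar encodes an enzyme that edits adenosines in RNA, Rassf5 a Ras-binding adaptor and Dgkz a diacylglycerol kinase. Gm40103 and Gm16174 are noncoding RNA genes, and their starts lie in members assigned to Notch2, a Notch receptor, and Bcl3, an atypical IkB protein. The member at Adar stood at 28.1 (vehicle) and 5.84 (inhibitor), that at Notch2 22.4 and 5.95, that at Rassf5 22.4 and 5.04, that at Bcl3 22.4 and 6.97, and that at Dgkz 22.1 and 8.10. The log2 differences were -2.09, -1.75, -1.95, -1.55 and -1.34, and the regions at Bcl3 and Dgkz were called with inhibitor too. Other words searched on both strands were TGANTCA of AP-1, in 11.3% of member windows against 6.75% of all, TTGCNNAA of C/EBP, in 12.2% against 9.57%, TGTGGT of RUNX, in 17.6% against 14.04%, the interferon response element in 3.15% against 2.97%, and TATAAA, in 8.11% against 12.4%. In promoter regions without a CpG island the shares, in the same order, were 7.91%, 11.9%, 17.5%, 6.43% and 8.26%. In intergenic regions they were 7.48%, 13.6%, 20.4%, 6.12% and 9.52%, and AP-1 was in 11.8% of 34 flanking windows. None of these shares is thus particular to the members. A match describes letters and is no evidence of binding.

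Members that held a RefSeq start were longer and stronger than those that held none. Their median length was 2042 bp against 1276 bp, their vehicle signal 15.7 against 12.7 and their inhibitor signal 4.97 against 4.29. The log2 difference was -1.55 in the first and -1.47 in the second. At like vehicle signal the members with a start were the less lowered, by a median of 0.07 over 10 classes (range -0.11 to 0.13, above 0 in 8). An interval was called with inhibitor at 26 of the 216 (12.04%) and at 209 of the 6120 others (3.42%). In the strongest class of vehicle signal the shares were 21 of 58 (36.2%) and 128 of 513 (25.0%).

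H3K27ac at the intragenic distal regions was lower with inhibitor nearly throughout. Nearly all members were listed through a vehicle call, which in itself favours this direction. The vehicle signal had a median of 12.8 with quartiles of 11.5 and 15.0, and the inhibitor signal a median of 4.30 with quartiles of 3.5 and 5.17. Each region's difference was taken on the scale of log2(signal + 1), inhibitor minus vehicle, and had a median of -1.48 and quartiles of -1.71 and -1.24. Without the added 1, the ratio of vehicle to inhibitor signal, taken region by region, had a median of 3.21. At least 2-fold lower signal was found in 5890 members (90.9%), against 93.4% of all regions, and at least 2-fold higher signal in 12, against 0.138% of all. The remaining 577 members differed by less than 2-fold in either direction. Both shares are close to those of the whole list, so the direction is not a property of the intragenic regions alone.

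Most members had no called interval in the inhibitor library. An interval was called in 6442 members with vehicle and in 239 with inhibitor, which is 3.69% of members (Wilson 95% interval 3.26 to 4.18, counting error only) against 10.3% of all regions. The calls divide into 6240 with vehicle alone, 202 in both and 37 with inhibitor alone. Members called in both were long and strong, with a median length of 4240 bp, a vehicle signal of 22.0 and an inhibitor signal of 6.52. Those called with vehicle alone measured 1270.5 bp, 12.7 and 4.25. The log2 difference was -1.64 in the former and -1.47 in the latter, at vehicle signals that differ. In the strongest of 10 classes of vehicle signal the median over all members was -1.80. Of the 233 members of at least 5 kb, all were at least 2-fold lower and 79 (33.9%) were called with inhibitor.

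**Figure D1:**
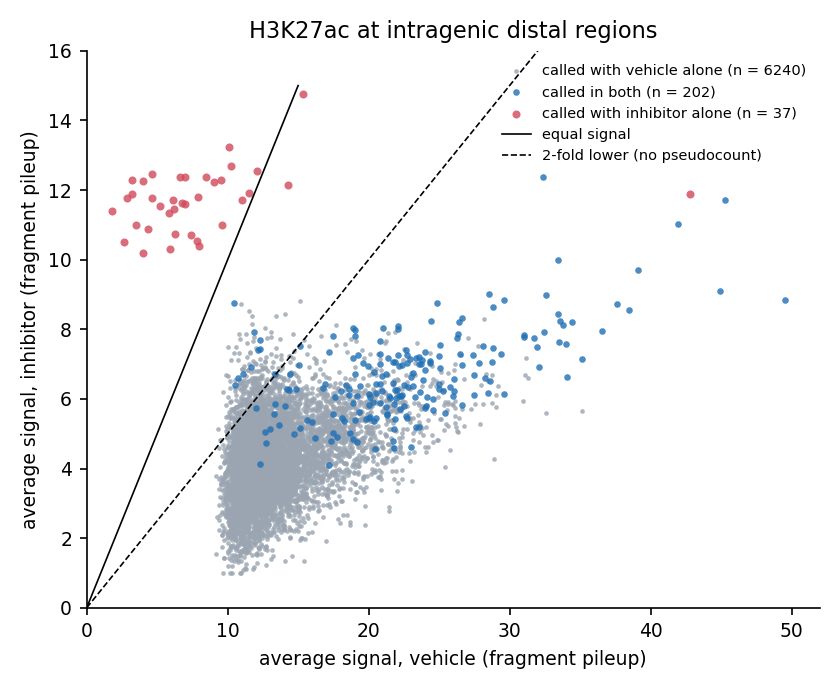
Average H3K27ac signal (fragment pileup) of each of the 6479 intragenic distal regions, with vehicle on the horizontal axis and with inhibitor on the vertical axis. Points are coloured by the library in which an interval was called. The solid line marks equal signal and the dashed line a 2-fold lower signal without pseudocount. Of the 37 regions called with inhibitor alone, 34 lie above the line of equal signal. The one in Mapre2 lies far from the rest, at 42.8 with vehicle and 11.9 with inhibitor.

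The scatter of both signals sets apart most members called with inhibitor alone. These 37 members called with inhibitor alone were short, 244 to 429 bp, with a vehicle signal between 1.80 and 42.8 and an inhibitor signal between 10.2 and 14.8. Of these, 34 were higher with inhibitor, and no other member was. Over all regions 0.33% were higher. The calls favour this split, since these 37 were listed through the inhibitor library alone and every other member had a vehicle call. The strongest lies in Timp2, an inhibitor of metalloproteinases (chr11:118327344-118327742), at 15.3 with vehicle and 14.8 with inhibitor. The next lies in Slc6a6, the taurine transporter (chr6:91727109-91727414), at 10.1 and 13.2, and the third in Tbc1d13, at 10.2 and 12.7. Of the 10 called members with the highest inhibitor signal, 9 were of this kind, and the others were Uvrag (12.1 with vehicle and 12.6 with inhibitor), Hivep1 (4.64 and 12.5), Cd163l1 (8.46 and 12.4), Chat (6.64 and 12.4), Ptpn11 (7 and 12.4) and Ildr2 (3.2 and 12.3). A member of 307 bp in Mapre2 was at 42.8 with vehicle although no vehicle interval was called there. The lowest average of any called vehicle interval was 9.15, and that of any called inhibitor interval 4.10.

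The intragenic members were a little less lowered than other regions without a CpG island. The median log2 difference was -1.54 at 1067 flanking distal regions, which lie near genes but outside them, -1.59 at 2647 intergenic regions with no gene entry, -1.57 at 3631 promoter regions without a CpG island and -1.77 at 7998 promoter regions with one, against -1.48 at the members. Vehicle medians were 12.9, 12.9, 13.4 and 20.2 in the same order. All kinds of region were then cut into 10 classes of vehicle signal. Within classes the intragenic members lay above the flanking regions by a median of 0.05 (range -0.02 to 0.10, above 0 in 9 of 10 classes). They lay above the intergenic regions by 0.11 (0.07 to 0.13) and above promoters without a CpG island by 0.05 (0.01 to 0.08), in all 10 classes each. Against promoters with a CpG island the median was -0.08 (range -0.21 to 0.13), below 0 in 9 classes and above it in the strongest, which holds 4545 of these 7998 promoters. Ranked by inhibitor signal the same 4 gaps were 0.05, 0.05, 0.04 and 0.36, so the order against CpG-island promoters depends on the ranking.

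**Figure D2:**
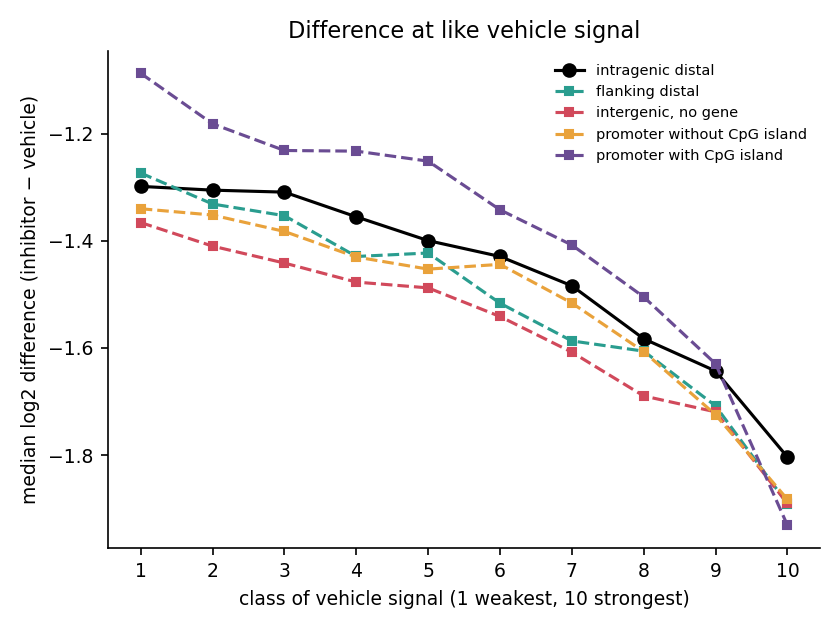
Median log2 difference (inhibitor minus vehicle, pseudocount 1) in 10 classes of vehicle signal from weakest to strongest, for intragenic distal regions (black circles) and 4 other kinds of region (squares). The intragenic median goes from -1.30 in the weakest class to -1.80 in the strongest, and intergenic regions lie lower in every class.

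The plot by class also shows the course within the members themselves. By vehicle signal, which is itself a term of the difference, the median was -1.30 in the weakest class and -1.80 in the strongest. Ranked by inhibitor signal the course was the reverse, from -1.95 to -1.13, and ranked by mean signal there was no steady course, with -1.69 in the weakest class, -1.34 in class 4 and -1.76 in the strongest. No order by signal can be read from this. Across the classes of vehicle signal the median length went from 820 to 3322.5 bp. The share called with inhibitor was 25.9% in the strongest class (152 of 586), 3.55% in the next, between 0.308% and 1.28% in classes 2 to 8 and 5.16% in the weakest (33 of 639), which holds most members called with inhibitor alone. At like vehicle signal other kinds were called at similar shares, with 26.0% of flanking, 27.8% of intergenic and 31.5% of CpG-island-free promoter regions in the strongest class.

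Position in the gene made little difference to the values. The distance to the start of the host gene had a median of 27462 bp, and 943 members (14.6%) lay beyond 100 kb. In 7 classes of distance the median log2 difference ranged only from -1.50 to -1.44, and members beyond 50 kb differed from those within 10 kb by -0.0059. Genes were also cut into 3 equal stretches, for 6491 pairs of member and host gene that lay within the RefSeq gene length. The first stretch held 36.0% of these pairs, the middle 35.8% and the last 28.2%, and the medians were -1.50, -1.48 and -1.44. The 395 members just inside the promoter limit, between 2.5 and 5 kb from the start, had signals of 12.3 and 3.98, and 358 promoter regions at the same distances 13.1 and 4.26. Of 5193 members that could be assessed against RefSeq protein-coding starts, 784 (15.1%) lay nearer to the start of another gene than to that of any gene listed. Their median of -1.46 was near the -1.48 of the others.

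The members lay in 2568 genes, 19.1% of the 13443 genes with a region of any kind. Most hosts held few, as 1274 genes held a single member, 536 held 2, 390 held 3 or 4, and 368 held at least 5. Those 368 genes held 2884 members (44.5%). Hosts were long genes, with a median RefSeq length of 50.4 kb against 15.1 kb for genes with a region but no member. The share with a member went from 1.78% in the shortest of 4 equal classes of gene length through 11.5% and 22.7% to 41.9% in the longest. A count of members per gene is thus also a measure of gene length.

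Etv6, an ETS-family repressor needed for adult blood stem cells, held the most, with 35 members. Their vehicle signals ran from 9.95 to 23.6 with a median of 12.8, and their inhibitor signals from 2.16 to 6.24 with a median of 3.44. The ranges did not overlap, but this is no trait of Etv6. Over all 6240 members called with vehicle alone, the lowest vehicle average was 9.15 and the highest inhibitor average 8.82. At least 2-fold lower were 34 of 35, against 90.9% of members and 93.4% of all regions. The median difference was -1.72. Cmip, an adaptor in T-cell signalling, held 28, at 10.7 to 21.5 with vehicle and 2.47 to 6.42 with inhibitor, 24 of them at least 2-fold lower. Asap1, a GTPase-activating protein for Arf, held 22 (median -1.44), Rin3, a Rab5 exchange factor, 21 (-1.36), and Zmiz1, a transcriptional coregulator, 21 (-1.37). Smad3, which carries TGF-beta signals to the nucleus, held 18 with a median of -1.25. One of them was called with inhibitor alone and rose from 6.09 to 11.7. Igf1r, the receptor of insulin-like growth factor 1, held 17 (-1.34). Tied at 16 were the calcium channel gene Itpr1 (-1.37), Lrrfip1 (-1.59), the kinase gene Ptk2b (-1.50), the thyroglobulin gene Tg (-1.39) and the focal adhesion gene Tns3 (-1.40).

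Runx1, a master regulator of blood formation, held 17 members between 6348 and 210035 bp from its start. Vehicle signals ran from 9.36 to 26.4 and inhibitor signals from 2.57 to 5.81, with medians of 13.1 and 4.35. All 17 were at least 2-fold lower (median -1.62, from -2.18 to -1.16), against 93.4% of all regions. None was called with inhibitor, against 3.69% of members. The strongest, 107563 bp from the start, was at 26.4 with vehicle and 5.04 with inhibitor, and the farthest, at 210035 bp, at 12.6 and 4.44. Tg is a thyroid gene, and 8 of its 16 members lie also in Sla, a Src-like adaptor gene nested in it. The strongest of those 8, at 66808518 to 66817524 of chromosome 15, was at 21.6 and 5.12. An assignment to a gene therefore does not say which gene a region acts on.

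**Figure D3:**
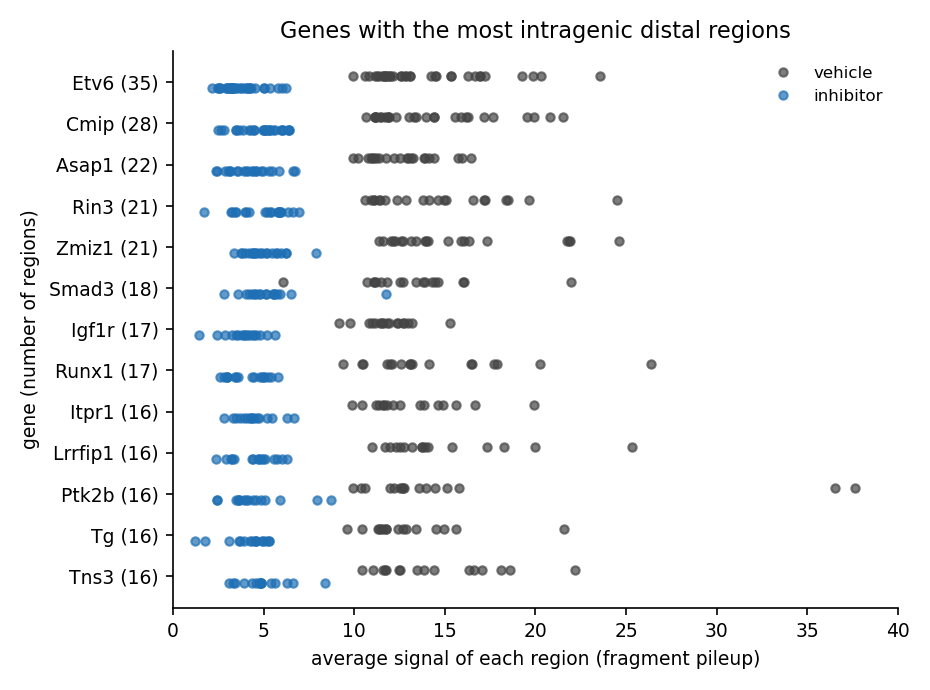
Average signal of every intragenic distal region in the 13 genes that hold 16 or more, with vehicle (grey) and inhibitor (blue); 1 point is 1 region and the number of regions stands beside the gene. In every gene but Smad3 the inhibitor values lie below all vehicle values, and in Smad3 1 region is higher with inhibitor, at 11.7 against 6.09. All members called with vehicle alone are likewise apart, at 9.15 or more with vehicle and 8.82 or less with inhibitor.

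Over these 13 genes the inhibitor signals fill a narrower range than the vehicle signals on the linear axis. As ratios of highest to lowest, the inhibitor ranges are the wider in most of them, Runx1 and Ptk2b excepted. In Igf1r they ran from 1.43 to 5.64, beside 9.16 to 15.3 with vehicle. The vehicle range is also cut from below, as no called vehicle interval averaged under 9.15. Ptk2b, a relative of focal adhesion kinase that acts downstream of integrins, has 2 members that stood out with vehicle, at 37.6 and 36.5. With inhibitor they were at 8.72 and 7.95, and both were still called. Its other 14 members lay below 16 with vehicle.

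**Figure D4:**
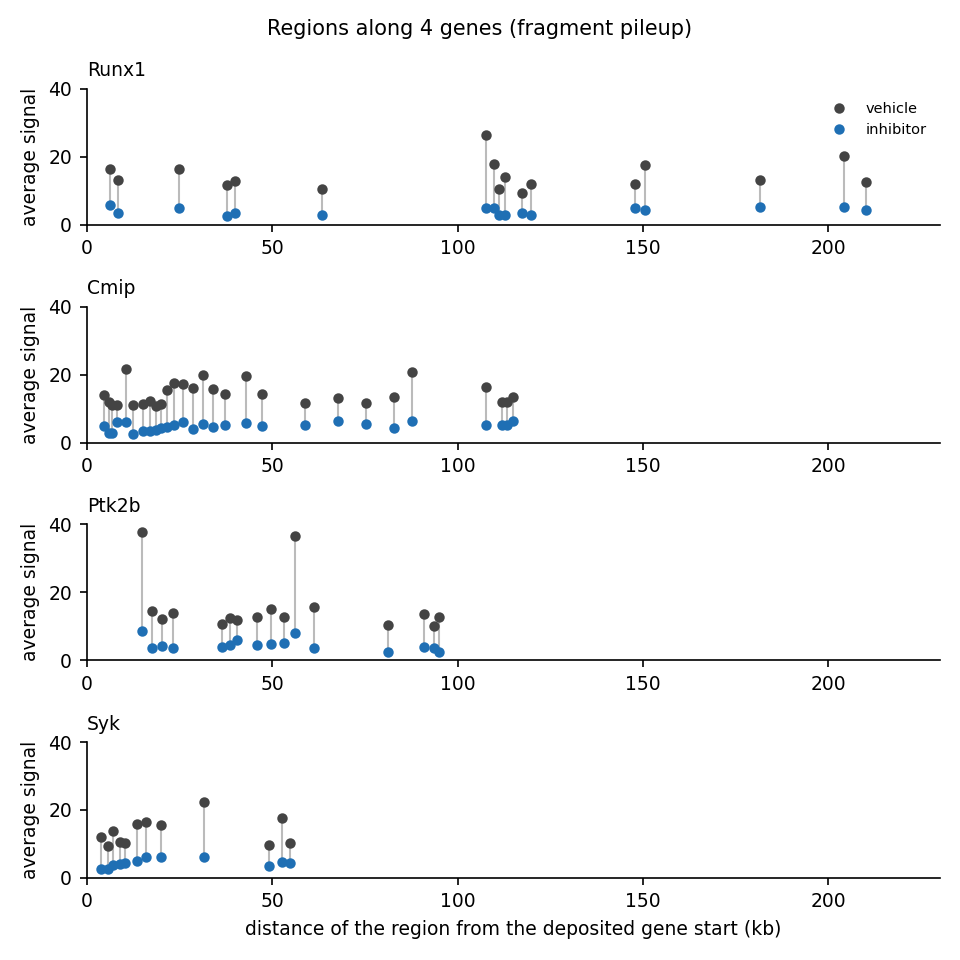
Average signal of each intragenic distal region of Runx1, Cmip, Ptk2b and Syk against its distance from the deposited gene start (kb), with vehicle (dark) and inhibitor (blue) joined by a line. All regions shown are lower with inhibitor, and the 2 strongest, in Ptk2b, go from 37.6 to 8.72 and from 36.5 to 7.95.

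Many members stand in rows, as the map of the 4 genes shows. When neighbours at most 12.5 kb apart were joined, 4505 members (69.5%) fell into 1364 chains of 2 or more and 1974 stood alone. Chains of 5 or more numbered 243 and held 1700 members. Their median difference was -1.45, the same as for single members, with vehicle signals of 13.1 and 12.5. The longest chain, in Cmip, held 24 members over 86.2 kb of chromosome 8 and had a median of -1.51. A chain of 21 in Rin3 covered 91.5 kb and one of 17 in Smad3 66.3 kb. A chain of 14 across Vhl and Irak2 had 4 members called with inhibitor, against 3.69% of members and 10.3% of all regions.

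Members of 1 gene differed widely among themselves. In the 368 genes with at least 5 members, the SD of the log2 difference within a gene was 0.35, beside an SD of 0.39 over all members. The range within a gene had a median of 0.89. The lowest gene median was -1.95, in Dock4, an exchange factor for Rac, whose 5 members lay between 11 and 19.6 with vehicle and between 2.32 and 4.31 with inhibitor. The highest was -0.999, in Aacs, which makes acetoacetyl-CoA. These 2 genes stand at the ends of 368 ordered values and were named after their values were seen.

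The strongest promoter region of a host gene was mostly lowered more than its intragenic members. A promoter region was listed for 2094 hosts, and the strongest had median signals of 21.9 with vehicle and 5.69 with inhibitor, a difference of -1.80. The members of these genes were at 12.8 and 4.32, a difference of -1.47. Gene by gene the members lay above the promoter by a median of 0.31 (quartiles 0.02 and 0.60), in 1597 genes (76.3%). The promoter region was chosen for its vehicle signal, which is a term of the difference, and this choice favours that direction. With the promoter region nearest the start the median gap was 0.25. At like vehicle signal, over all regions, the gap was 0.05 to promoters without a CpG island and -0.08 to those with one. The promoters were also stronger, so signal and kind of region cannot be told apart in the gap within genes. The promoter was called with inhibitor in 567 genes (27.1%), and at least 1 member was in 221 of the 2568 hosts. Hosts cut into 4 groups by the strength of their promoter had member medians between -1.48 and -1.46, and hosts with no promoter region had -1.49. Across 330 genes with at least 5 members, the Spearman correlation of promoter and member differences was 0.12, a description across genes that share both libraries.

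In 474 hosts the list held members but no promoter region. They held 905 members. Agap1 had 14, Erg, an ETS factor of endothelial and blood stem cells, had 12, and Hdac4, a histone deacetylase, had 11. The Erg members ran from 11.1 to 18.9 with vehicle and from 2.40 to 5.94 with inhibitor. Those of Hdac4 ran from 10.4 to 20.3 and from 1.36 to 7.42, and the 2 that mark the ends of the chromatin list lie here. One, 193584 bp from the start, went from 14.1 to 1.36 (-2.68), and one, 68127 bp from it, from 12.3 to 7.42 (-0.66) with a call in both libraries. Col15a1, a collagen gene, had 8, of which the strongest was at 35.1 and 7.16.

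The members of highest vehicle signal sat in genes of several functions. A630001O12Rik led at 49.6 with vehicle and 8.83 with inhibitor over 9613 bp (chr8:126843767-126853380). Ncf4, a subunit of the phagocyte NADPH oxidase that makes superoxide, followed at 45.3 and 11.7 (chr15:78256944-78259180). Arap1, a GTPase-activating protein, was at 44.9 and 9.11, and Ago2, the slicer of RNA interference, at 41.9 and 11.04. Sema4d held a member of 14643 bp at 39.1 and 9.70, and Myo9b, a myosin, was at 38.5 and 8.56. All 6 were called in both libraries, and their log2 differences lay between -2.36 and -1.83. The tenth, in Med12l (chr3:59311529-59313352), was at 35.2 and 5.64 (-2.44) and had no call with inhibitor.

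Among members with a called vehicle interval whose mean signal over both libraries reached the member median of that mean, the 10 lowest differences were ratios of 6.23 to 8.89 without pseudocount. Entpd1, which encodes CD39, an enzyme that breaks down extracellular ATP, held 2 of the 10 lowest. One went from 17.0 to 1.91 (-2.63) and one from 18.7 to 2.39 (-2.54), and its 12 members ranged from -2.63 to -1.18. A further member of Med12l, at 59204190 to 59207259 of chromosome 3, lies 5158 bp from the start of P2ry13, a receptor for ADP, and went from 21.4 to 2.77 (-2.57). Tvp23a (19.7 to 2.39), 2310022A10Rik (21.4 to 2.90), Dtnb (28.9 to 4.27), Entpd7 (18.7 to 2.48), Ankrd11 (15.5 to 1.97) and Lpp (18 to 2.44) made up the rest together with the Med12l member given before. None of the 10 was called with inhibitor.

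At the other end, the 10 highest differences by the same rule lay between -0.47 and -0.23. Gda, guanine deaminase, was at 10.5 with vehicle and 8.76 with inhibitor (-0.23) and was called in both. A member of Fdft1 that lies downstream of Ctsb, the cathepsin B gene, was at 10.96 and 8.74 (-0.30). Uck2 (10 and 7.50), Anp32a (11.5 and 8.54), Bach1 (10.8 and 7.88), Tns3 (11.7 and 8.39), Pag1 (10.8 and 7.73), Pitpnc1 (10.6 and 7.50), Daglb (10.5 and 7.33) and Mbp (10.2 and 7.13) followed, at -0.47 to -0.37. By peak signal Daglb fell by 1.06. Their vehicle signals all lie below 12, and those of the 10 lowest all lie above 15. The rule brings this about, since vehicle signal is a term of the difference and both sets passed the same floor of mean signal. No trait of these members can be read from it.

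Of the members called in both libraries, Ttc39b had the highest inhibitor signal. It was at 32.4 with vehicle and 12.4 with inhibitor (-1.32). Mgat4a, a glycosyltransferase, followed Ncf4 and Ago2 at 33.4 and 10, and Batf, an AP-1-family factor, was at 32.6 and 8.97 (-1.75). Vasp, which binds growing actin filaments, was at 28.5 and 9.02, and Gfod1 at 29.6 and 8.84. Each of these was lower with inhibitor by more than 2-fold, although the call was retained.

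Of 12 gene lists, the one of Src-family, Syk and immune receptor signalling held the most hosts. Of its 34 genes with a region 31 (91.2%) held a member, against 19.1% of all genes with a region. Its median gene length was 59.0 kb, and 41.9% of genes in the longest of the 4 length classes held one. Its 129 members had a median difference of -1.50. At least 2-fold lower were 123 (95.3%), near the 93.4% of all regions. An interval was called with inhibitor in 7, against 3.69% of members and 10.3% of all regions. The list of chromatin acetylation and nuclear receptor coregulators has longer genes, with a median of 65.9 kb, and 10 of 29 (34.5%) held a member. The lists were drawn up with earlier results of these data known, and no chance level was computed.

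Syk, a kinase downstream of Fc receptors and integrins, held 12 members. They ran from 9.39 to 22.4 with vehicle and from 2.53 to 6.12 with inhibitor. All 12 were at least 2-fold lower, as were 93.4% of all regions, and their median of -1.41 was near the -1.48 of all members. Its longest, 12775 bp, was at 22.4 and 6.12 and was called in both libraries. Plcg2, a phospholipase that Syk activates, and Prkcb, a protein kinase C, held 13 each. Plcg2 had its strongest at 20.8 and 5.90 and Prkcb at 19.05 and 6.71, both called with inhibitor. Of the Src-family kinases, Fgr held 3 members (-1.75) and Lyn held 3 (-1.33). Vav1, an exchange factor for Rac, held 2, at 21.8 and 22.2 with vehicle and 5.86 and 6.94 with inhibitor, and both were called with inhibitor. Over all regions 10.3% were called with inhibitor, and in the strongest class of vehicle signal 25.9% of members were. Among negative regulators, the phosphatase gene Ptpn6 held 1 member at 27.5 and 6.12 (-2.00), and Inpp5d, the lipid phosphatase SHIP1, held 7, from 10.4 to 29.2 with vehicle and from 3.23 to 6.38 with inhibitor. Ptprc, the gene of the sort marker CD45 and a phosphatase that acts on Src-family kinases, held 3, from 10.7 to 11.4 with vehicle and from 2.5 to 4 with inhibitor. The adaptor gene Dok3 held the highest of the list, at 11.1 and 6.37 (-0.71).

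Among 44 myeloid transcription factor genes, 23 (52.3%) held 157 members, with a median of -1.48. At least 2-fold lower were 145 (92.4%), near the 93.4% of all regions. Besides Etv6 and Runx1, Fli1, an ETS factor, held 8 from 12.9 to 18.3 with vehicle and 2.76 to 5.92 with inhibitor, all at least 2-fold lower. Ikzf1, Ikaros, held 7 (-1.48), Irf2 5 (-1.42) and Elf1 4 (-1.44). The gene of PU.1, Spi1, listed under its older symbol Sfpi1, held 2, at 11 and 4.44 and at 11.4 and 2.08. Bach1, a heme-regulated repressor, held 6 with the highest value of the list at -0.41. Of further genes looked up by name, Cebpb and Stat3 held none, and neither did Crebbp, Ep300, Csf3r, Il1r2, Itgal, Ncoa1 and Ncor1.

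Of 25 neutrophil identity genes with a region 6 (24.0%, against 19.1% of all genes with a region) held 12 members. All 12 were at least 2-fold lower (median -1.49), as were 93.4% of all regions. Ltf, lactoferrin of the specific granules, held 4, from 11.8 to 14.04 with vehicle and 2.36 to 4.52 with inhibitor. Itgam, the CD11b chain used in the sort, held 3, of which 1 went from 11.3 to 1.68 (-2.20), and Cxcr2, a neutrophil chemokine receptor, held 1 at 11.3 and 4.43. Of 22 monocyte and macrophage genes 2 (9.09%) held a member. These were Cx3cr1, the fractalkine receptor, with 2 (13.1 to 3.41 and 16.9 to 6.14) and Itgax, CD11c, with 1 (13.1 to 4.39). These genes are short, with medians of 7.25 and 9.82 kb.

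**Figure D5:**
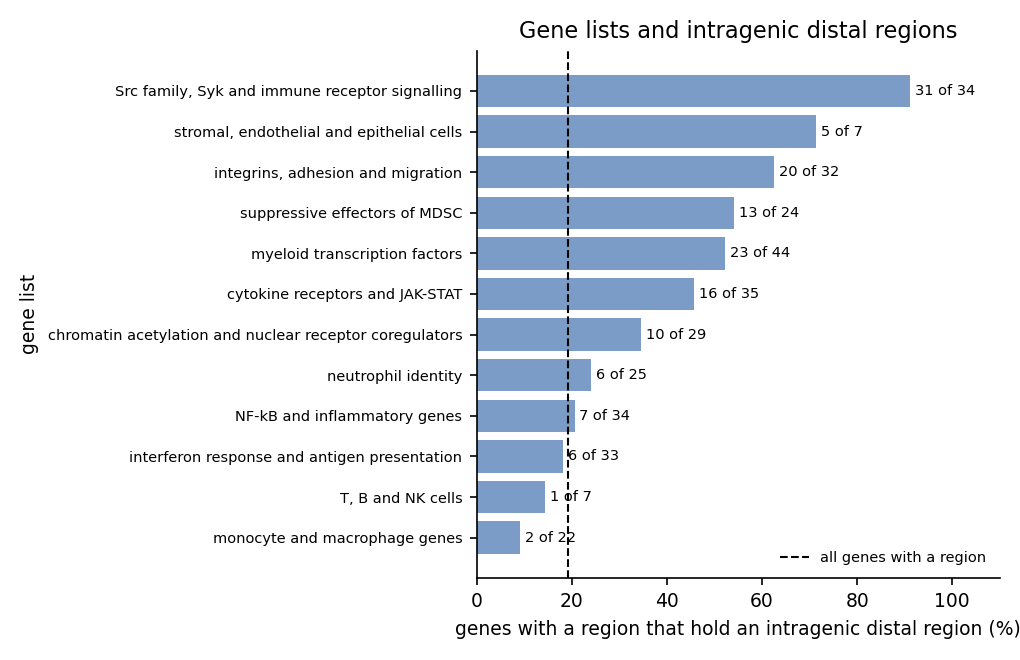
Share of genes with a region that hold at least 1 intragenic distal region, for 12 gene lists; the counts stand beside the bars and the dashed line marks the 19.1% of all 13443 genes. The list of Src-family, Syk and immune receptor signalling is highest with 31 of 34 genes.

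The comparison of gene lists sets the remaining groups side by side. Integrin, adhesion and migration genes had 20 of 32 hosts (62.5%) with 68 members (-1.57). Elmo1, which acts with Dock proteins on Rac, held 11, from 10.3 to 15.2 with vehicle and 1.79 to 5.72 with inhibitor. Itgb2, the beta chain shared with CD11b, held 8, the strongest at 26.1 and 7.00. The highest of this list lay in Ezr, ezrin, at 10.5 and 6.55 (-0.61). Genes of suppressive effectors of MDSC had 13 of 24 hosts with 37 members (-1.37). Ncf4 held 6, of which 5 were between 11.3 and 18.3 with vehicle beside the strong one. Cd274, the gene of PD-L1, held 4, from 10.4 to 14.9 with vehicle and 2.85 to 5.47 with inhibitor, between -2.05 and -0.99.

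Cytokine receptor and JAK-STAT genes had 16 of 35 hosts with 38 members (-1.43). At least 2-fold lower were 32 (84.2%), against 93.4% of all regions. None was called with inhibitor, against 3.69% of members and 10.3% of all regions. Tnfrsf1b, the second TNF receptor, held 7, from 11.1 to 22.4 with vehicle and 3.69 to 6.32 with inhibitor. The strongest of these was also the lowest in difference, at 22.4 and 3.69 (-2.32), and 5 of the 7 were at least 2-fold lower. Jak1, the kinase of many cytokine receptors, held 6 (-1.67). Stat5b held 1 at 19.2 and 4.78, Il4ra 1 at 15.0 and 5.56, and Csf2rb 2. Tgfbr2, a receptor of TGF-beta, had the highest, at 11.05 and 6.86 (-0.62).

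NF-kB and inflammatory genes had 7 of 34 hosts with 15 members (-1.40), all at least 2-fold lower, as were 93.4% of all regions. Nfkb1, the gene of the p50 subunit, held 3 (-1.42). Il1rn, which blocks the interleukin-1 receptor, had the lowest at 11.5 and 2.36, and Irak3, an inhibitor of Toll-like receptor signalling, the highest at 10.98 and 4.92 (-1.02). Interferon and antigen presentation genes had 6 of 33 hosts with 9 members (-1.54). Samhd1, which degrades dNTPs, went from 10.7 to 1.75, and a member of Irf9 that lies downstream of Rnf31 from 11.4 to 7.62 (-0.52).

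Marker genes of other cell types were checked as well. Of 27 genes of T, B and NK cells 7 had a region of any kind and 1 a member, Lck, at 12.3 and 3.56. Of 25 genes of stromal, endothelial and epithelial cells 7 had a region, and 5 of these held 16 members. Pecam1, CD31, which endothelium and also myeloid cells express, held 6 members from 10.9 to 17.2 with vehicle and 2.40 to 4.30 with inhibitor. Col4a2, a basement membrane collagen, held 5, from 9.68 to 15.0 and 2.20 to 6.07. Of 28 neutrophil identity genes 25 had a region. The part of other cells in the signal was not tested.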

How the data were processed

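H3K27ac ChIP-seq signal of 1 vehicle and 1 inhibitor library was read from the deposited table of 22399 merged regions. The authors' average and peak signal are fragment pileup, and the submitters' processing notes name BWA, SICER, hg19 and dm3 without versions. Reads were paired, of 150 bp, from chromatin fixed with 1% formaldehyde. No spike-in factor is given in the sources used here, and the pooled input was not used here. Coordinates are mouse, since 94.7% of 5242 gene starts lay within 1 kb of GRCm38, and are printed as deposited.

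No member average lay between 0 and 1, and the average times the number of 32 bp bins (or 1 less) came out whole, to the table's precision, for 96.3% of members with vehicle and 55.5% with inhibitor. A mean over filled bins has these properties and overstates weak signal.

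Differences are log2(average signal + 1), inhibitor minus vehicle, computed with Python 3.11.15, pandas 2.3.3, numpy 2.4.6 and scipy 1.17.1. The code was run on simulated differences that were drawn without regard to vehicle signal. That run does not cover the real case, where vehicle signal is a term of the difference. With 1 library per treatment there was no test, and sizes past 2-fold are counted. Depth is unknown. For comparisons at like signal, 10 classes were cut by vehicle signal. For each gene the promoter region of highest vehicle signal was used, which can lie far from its start. Chains join members at most 12.5 kb apart. Of 2568 host symbols, 2401 matched RefSeq directly and 142 as older symbols. Start windows come from RefSeq GRCm38.p6, and 143 members on a chromosome without windows were left out there.

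Regions named were, by rule, the 10 of highest vehicle signal, the 10 of lowest and of highest difference among called vehicle regions whose mean signal over both libraries reached its member median, the 10 of highest inhibitor signal among those called with inhibitor and the 3 highest of those called with inhibitor alone. Genes named were the 10 with most members (13 with ties), the ends and the largest host of each of 12 lists (365 genes), and a fixed set of 30. A few genes that meet these rules stay unreported here, although the counts include them. Mgat4a, Batf, Vasp, Gfod1, the genes with no promoter region, Sla, Ptpn6, Inpp5d, Itgb2, Dock4 and Aacs were named after their values were seen. Members, lists and rules were chosen with earlier results of these data known. Alternatives were peak signal, other pseudocounts, recentring, filters on signal, length, position and calls, other classes and another promoter region.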

Additional observations from a re-analysis of the deposited data

How the results depend on the processing

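No paired analysis was possible because each treatment has 1 library, and no replicate could be left out for the same reason. Of 48 recomputed values, 28 stayed within their limits. The median difference of -1.48 was -1.40 by peak signal, -1.68 without pseudocount and -0.99 with a pseudocount of 5. Recentred on the median of all regions it was 0.13, so the sign rests on the scaling between the libraries. The count of 5890 regions at least 2-fold lower was 3181 with a pseudocount of 5, 6 after recentring and 3666 of 4114 without the weakest 25% of regions. The gap to the host promoter, 0.31, was 0.44 by peak signal, 0.27 without pseudocount, 0.35 with a pseudocount of 5 and 0.25 with the promoter region nearest the start. The share called with inhibitor, 3.69%, was 5.59% without the weakest 25%, 3.14% without regions under 500 bp and 3.14% over members called with vehicle. The last setting, and one that leaves out members with a RefSeq start, were added after the data were seen. The difference between far and near members, -0.0059, was -0.0227 by peak signal, -0.0037 without pseudocount, -0.0042 with a pseudocount of 5, -0.0267 without the weakest 25%, -0.0048 without short regions and 0.015 where every listed position was in the gene. The gap to flanking regions lay between 0.03 and 0.08 throughout. Of 64 named regions, 3 changed side of 2-fold by peak signal, in Daglb, Dok3 and Irak3. The cause of these moves was not tested. Depth is unknown, so no error from counting can be given for a signal.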

Other observations

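RefSeq places 11 microRNA hairpins wholly inside intragenic distal regions. The strongest such region holds Mir1191b in the gene body of Nfic, a nuclear factor, and had an average signal of 26.5 with vehicle and 7.25 with inhibitor. Mir7235 lies in a region of Tbkbp1, an adaptor of the kinase TBK1, at 23.7 and 5.24, and Mir6904 in a region of Parp1, a DNA repair enzyme, at 17.0 and 3.96. Mir6999 lies in the Dgkz region printed above, at 22.1 and 8.10. The differences of the 11 regions ran from -1.98 to -0.66, and the highest, at Mir6921, was at 11.8 and 7.09. Signal over a hairpin gives no measure of the microRNA itself.

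Chromosome X carried few intragenic distal regions. It held 32, which is 9.79% of its 327 regions, whereas the 19 autosomes had between 21.5% (chromosome 3) and 37.5% (chromosome 14). The median difference on X was -1.37, with signals of 11.9 and 4.03, and autosomal medians lay between -1.55 and -1.42.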
